A study of Homo sapiens with 4 samples.

Results

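Peaks of H3K4bhb, the beta-hydroxybutyrylated form of lysine 4 on histone H3, were examined in the parts of the human genome where genes lie closest together. Chromosomes 1 to 22 were divided into 1 Mb windows from position 0, and a window was taken as gene-dense when it held the midpoints of 20 or more RefSeq protein-coding genes. Genes that the table places by the coordinates of a scaffold were left out. Of 2886 windows, 212 met that limit, 7.35% of the windows with 6200 of 18969 genes (32.7%), and they held between 20 and 64 genes, with a median of 27. A peak was a member when its summit, the position of highest signal, lay in such a window. The members were 737 of the 17761 peaks of the series, 166 of 6251 after H2O2 alone and 571 of 11510 after BHBNa and H2O2, lists called H2O2 and H2O2 + BHBNa below. ChIP-seq, the sequencing of DNA recovered with an antibody against the mark, was carried out on HK-2, an established line of human renal tubular epithelial cells. Both treatments received hydrogen peroxide (H2O2), an oxidant, and in 1 of them the sodium salt of beta-hydroxybutyrate (BHBNa) was given first; no cells without H2O2 entered the comparison, and the labels give no dose or time. Each treatment had 1 immunoprecipitated (IP) library, 1 control library, whose labels hold both IgG and Input, and 1 peak list, so no difference below has a replicate check or a test, and each interval covers counting error only.

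Beta-hydroxybutyrate is a ketone body made by the liver during fasting. It serves as a fuel, and its acyl group can be attached to lysines of histones, a modification that has been linked to gene activity in starvation and diabetic ketosis. Methylation of the same lysine 4 is a familiar mark of active promoters. Gene-dense stretches of human chromosomes tend to be rich in G and C and to replicate early, and they hold many short, broadly expressed genes as well as tandem families of tissue-restricted genes such as olfactory receptors and keratins.

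The depth of the libraries is unknown, because the sources used here give no read totals. For 100% of peaks the fold enrichment and p that the authors deposited could be solved for 2 quantities, the IP fragments at the summit and the control background beneath it. The lowest background, taken here as the genome-wide level, was 0.274 fragments for H2O2 and 0.102 for H2O2 + BHBNa. A summit carried at least 3 fragments in the former list and at least 2 in the latter. Among the members, 353 of 571 in the H2O2 + BHBNa list (61.8%) rested on 2 fragments, so counts are also given with at least 3 fragments required.

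Few members touched a promoter. Promoter sequences are shown for this contrast, the 2 that a member overlapped and 1 promoter of the highest member-bearing gene of each list for which the RefSeq table gives one. Each run is the 250 bases before an annotated transcription start on GRCh38.p14, 5′ to 3′, with every CG dinucleotide in capitals. OR10A2, an olfactory receptor gene, has its run on the plus strand at chr11:6862807-6863056. The run of CD9, a tetraspanin membrane protein, is on the plus strand at chr12:6225889-6226138, before a start that lies inside the annotated gene. The STAT5B run, for a transcription factor of cytokine signalling, is on the minus strand at chr17:42276392-42276641. The ZBTB8A run, for a BTB zinc finger protein, is on the plus strand at chr1:32539177-32539426.
OR10A2: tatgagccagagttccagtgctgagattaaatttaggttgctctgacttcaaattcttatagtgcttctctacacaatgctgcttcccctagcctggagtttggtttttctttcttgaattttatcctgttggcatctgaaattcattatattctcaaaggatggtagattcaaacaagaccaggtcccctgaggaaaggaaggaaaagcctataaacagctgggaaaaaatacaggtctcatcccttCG
CD9: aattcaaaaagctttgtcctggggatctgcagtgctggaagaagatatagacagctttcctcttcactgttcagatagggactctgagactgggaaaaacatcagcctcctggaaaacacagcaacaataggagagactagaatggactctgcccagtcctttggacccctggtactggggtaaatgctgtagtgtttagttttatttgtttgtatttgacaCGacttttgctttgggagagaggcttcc
STAT5B: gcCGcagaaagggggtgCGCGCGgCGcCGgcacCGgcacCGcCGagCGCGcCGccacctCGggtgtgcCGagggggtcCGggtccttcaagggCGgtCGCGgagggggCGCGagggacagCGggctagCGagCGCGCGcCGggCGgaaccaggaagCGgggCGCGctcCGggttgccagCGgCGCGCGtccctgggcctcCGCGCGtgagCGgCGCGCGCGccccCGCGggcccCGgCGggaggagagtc
ZBTB8A: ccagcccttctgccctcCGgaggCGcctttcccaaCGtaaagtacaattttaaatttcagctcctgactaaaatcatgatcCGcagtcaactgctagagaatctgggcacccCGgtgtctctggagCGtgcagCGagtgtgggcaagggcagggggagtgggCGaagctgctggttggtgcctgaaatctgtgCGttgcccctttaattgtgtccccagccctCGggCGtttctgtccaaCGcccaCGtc

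The runs of OR10A2 and CD9 had a GC content of 40.4% and 44.8% and 1 CG dinucleotide each, against medians of 62.4% GC (interquartile range 54.8 to 69.6) and 16 CG (5 to 25) over the 6321 promoter runs the table gives for genes of these windows. STAT5B held 47 CG and ZBTB8A 13, and the member peaks of these genes lay 13.6 and 19 kb from the starts shown. The letters TATAAA, searched on both strands, were found in the OR10A2 run and not in that of CD9; 9.86% of the 6321 runs held them. The OR10A2 member, of the H2O2 list, had 3 fragments, a fold of 2.96 and q = 0.494. That in CD9, of the H2O2 + BHBNa list, had 2 fragments, a fold of 2.72 and q = 0.326. Promoter runs made up 0.705% of the sequence of the windows, leaving out chromosome 8, for which none were used here. They held 0 of 164 H2O2 summits, which allows a share of up to 1.83% (taken as 3 of 164), and 1 of 568 H2O2 + BHBNa summits (0.176%). Within 1 kb of an annotated start lay 3 H2O2 summits (1.83%, 95% Wilson interval 0.624 to 5.24) and 15 H2O2 + BHBNa summits (2.64%, 1.61 to 4.31), where 4.94% of the sequence lay. The interval of the H2O2 + BHBNa share is below the sequence share and that of the H2O2 share includes it. In windows with fewer genes the shares were 0.224% and 0.478%, also below the 0.965% of sequence there. The table had a start for 4839 of the 6200 genes (78%).

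Gene-dense windows held fewer peaks than their length would give, and the shortfall was larger in the H2O2 list. In that list they held 2.82% of autosomal summits (2.43 to 3.28), or 0.783 peaks per Mb against 2.14 in all other windows, a density 0.366 times as high. In the H2O2 + BHBNa list they held 5.31% (4.9 to 5.75), or 2.69 per Mb against 3.81, 0.707 times as high. Both shares are below the 7.35% of windows. With at least 3 fragments the H2O2 + BHBNa list had 218 members, 4.2% of its autosomal peaks and 0.553 times the density elsewhere. Peaks of 2 fragments, of which the H2O2 list has none, thus narrow the shortfall of the H2O2 + BHBNa list.

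Density in the H2O2 list was level up to 4 genes and lower in each class after that. It was 2.53 per Mb in windows with no gene, 2.62 with 1 to 4 genes, 1.71 with 5 to 9, 1.21 with 10 to 19 and 0.783 with 20 or more. The H2O2 + BHBNa list gave 2.85, 4.26, 4.03, 3.41 and 2.69, highest at 1 to 4 genes and close at the 2 extremes. With at least 3 fragments it gave 1.56, 2.17, 1.8, 1.52 and 1.03. The number of H2O2 + BHBNa peaks for each H2O2 peak rose through the same classes, from 1.13 in windows without genes to 1.62, 2.35, 2.81 and then 3.44 in gene-dense windows. At 3 or more fragments the ratio went from 0.62 through 0.827, 1.05 and 1.25 to 1.31. The genome-wide background and the fewest fragments differed between the lists, as given above, and their part in these ratios was not tested. On either side of the limit the values were close. The 17 windows with 19 genes held 13 and 44 peaks (0.765 and 2.59 per Mb, H2O2 first), and the 17 windows with 20 genes held 10 and 45 (0.588 and 2.65 per Mb).

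**Figure D1:**
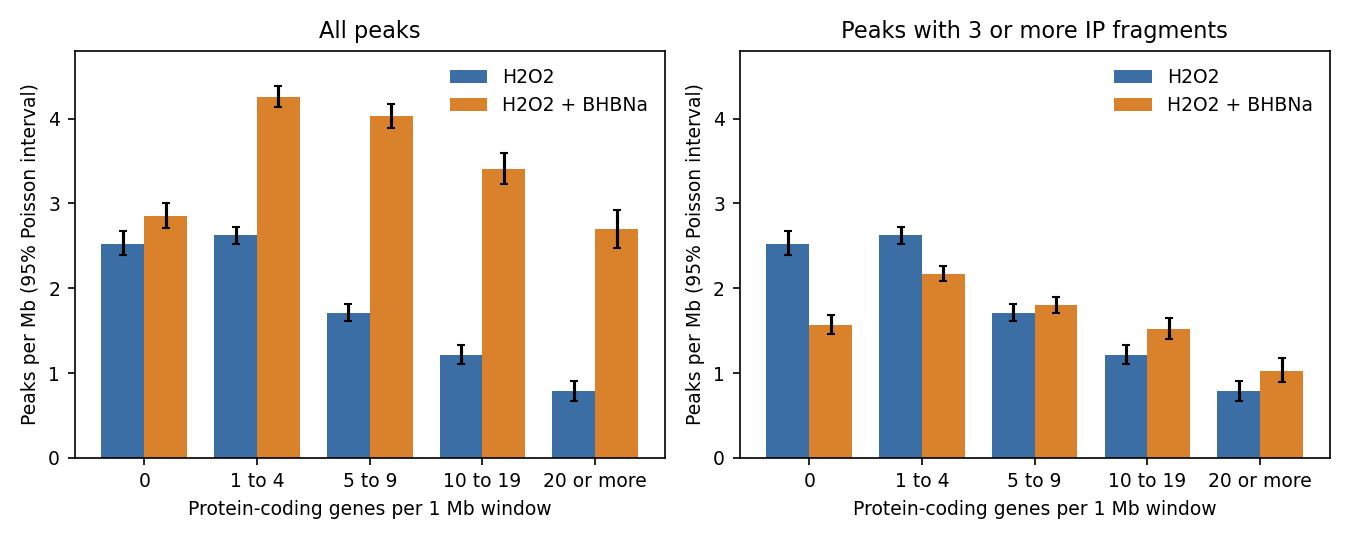
Peaks per Mb in 1 Mb windows grouped by their number of protein-coding genes, for all peaks (left) and for peaks with 3 or more IP fragments (right); bars are the value of 1 list and whiskers 95% Poisson intervals. In the H2O2 list the bars fall from 2.62 at 1 to 4 genes to 0.783 at 20 or more, and in the H2O2 + BHBNa list from 4.26 to 2.69.

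Chromosome 19, the most gene-dense human chromosome, contributed 41 of the 212 windows and 1283 of their genes. It held 16 H2O2 and 79 H2O2 + BHBNa members, 0.39 and 1.93 per Mb. Its 18 other windows were also sparse, with 0.556 and 2.06 per Mb, so the chromosome as a whole was low. Chromosome 11, with 21 windows, gave 28 and 77 members (1.33 and 3.67 per Mb), and chromosome 1, with 22 windows, 25 and 73 (1.14 and 3.32). Chromosome 17 had 24 windows and gave 16 and 41 members (0.667 and 1.71 per Mb). Chromosome 18 had no gene-dense window.

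Set against the other windows of the same chromosome, gene-dense windows had the lower density on 20 of 21 chromosomes in the H2O2 list, the exception being chromosome 21. In the H2O2 + BHBNa list they were lower on 16 of 21, and higher on chromosomes 9, 10, 14, 20 and 22. At each chromosome's own density elsewhere the windows would hold 329.8 and 691.2 peaks, and the 166 and 571 observed were 0.503 and 0.826 times those numbers. Differences between chromosomes thus accompanied part of the shortfall in each list. On chromosome 21, 2 windows held 6 H2O2 members, 5 of them in 1 window. Windows in assembly gaps, which can hold no peak, were kept among the other windows. Their part in the comparison on each chromosome, including those where gene-dense windows were higher, was not tested.

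**Figure D2:**
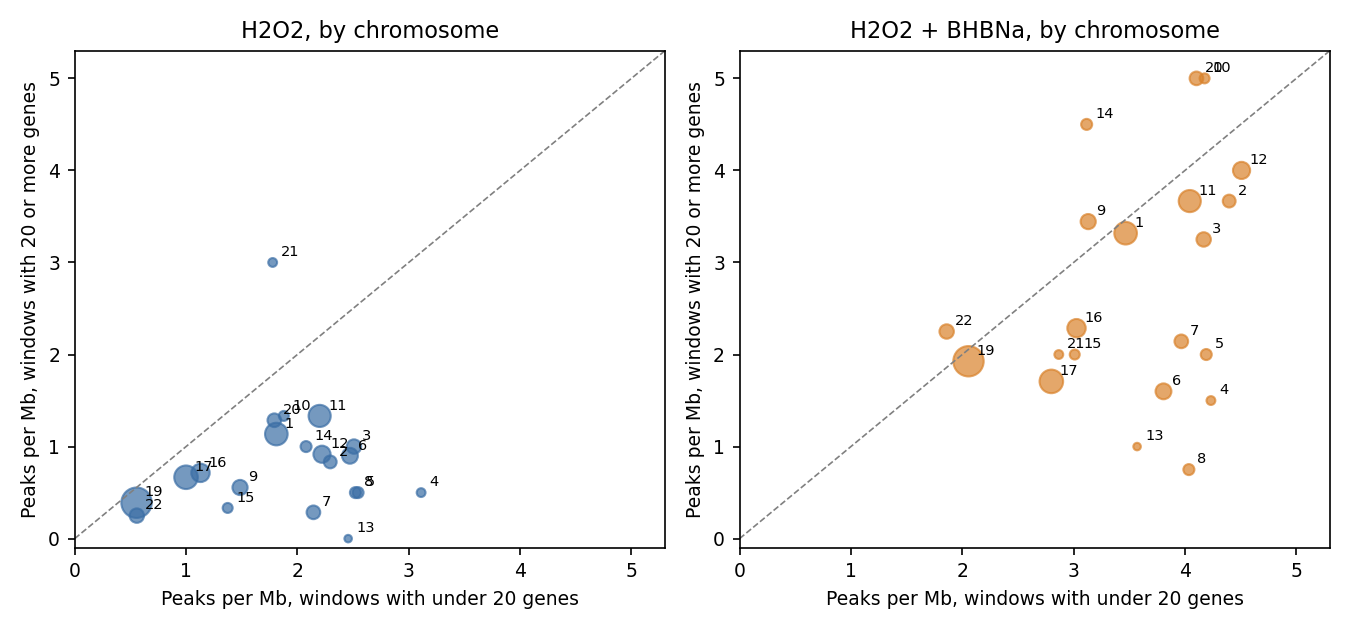
Peaks per Mb in gene-dense windows (vertical axis) against all other windows (horizontal axis) of each chromosome, 1 panel per list; a point is 1 chromosome, labelled by number and larger with more gene-dense windows, and the dashed line marks equal density. In the H2O2 panel 20 of 21 points lie below the line, and in the H2O2 + BHBNa panel 16 of 21.

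Most gene-dense windows were empty in the H2O2 list and held a few peaks in the other. No H2O2 peak was found in 116 of 212 windows (54.7%) and no H2O2 + BHBNa peak in 25 (11.8%), against 25.6% and 10.7% of the other windows. The median window held 0 and 2 members and the fullest 5 and 11. The H2O2 + BHBNa count was the higher in 158 windows, equal in 39 and lower in 15. Of the 96 windows with an H2O2 member, 93 (96.9%) also held an H2O2 + BHBNa member, and these were 49.7% of the 187 windows with an H2O2 + BHBNa member. The same shares in the other windows were 97.5% and 81.3%, so the first was alike and the second lower in gene-dense windows. An H2O2 peak was present in 96 of 212 gene-dense windows and 1990 of 2674 others, so the second share tracks how often a window held one.

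The fullest windows were led by tandem families and by ordinary neighbourhoods alike. In the H2O2 list the window at 30 to 31 Mb of chromosome 21, where 32 of 34 genes are keratin-associated proteins, and that at 124 to 125 Mb of chromosome 11, where 15 of 29 are olfactory receptors, held 5 members each. The former had a peak at an end of CLDN17, a claudin of tight junctions, and 4 intergenic ones. The latter had peaks in or near OR8B8, OR8G5 and SPA17. Of 6 windows with 4 members, the 3 with most genes lay on chromosome 11 at 66 Mb (PACS1 and TOP6BL) and 6 Mb (C11orf42 and OR10A2), and on chromosome 1 at 152 Mb, in the epidermal differentiation complex, with peaks in FLG, which encodes filaggrin of the skin barrier, and at RPTN. In the H2O2 + BHBNa list the window at 55 to 56 Mb of chromosome 12 held 11 members, 8 of them intergenic and the others at OR6C70, SARNP and TMT1B, and 0 H2O2 members; 15 of its 31 genes are olfactory receptors. Windows at 45 Mb and 31 Mb of chromosome 20 and at 21 Mb of chromosome 14 held 10 members each. The first of these carried peaks in RBPJL, STK4, PIGT, WFDC3, SPINT4 and EPPIN-WFDC6, and that on chromosome 14 peaks in CHD8, a chromatin remodeller, HNRNPC and RPGRIP1, 8 of the 10 from 2 fragments. At 151 Mb of chromosome 1, 9 members lay among PIP5K1A, THEM4, TUFT1, VPS72 and ZNF687, 7 of them from 2 fragments.

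Within the gene-dense windows, H2O2 density was lower still in windows with 30 or more genes. Windows with 20 to 24 genes held 0.963 (95% Poisson interval 0.761 to 1.2) and 2.89 (2.53 to 3.28) peaks per Mb. Those with 25 to 29 held 0.933 and 2.87, and those with 30 to 39 held 0.614 and 2.49. The 29 windows with 40 or more held 0.379 (0.189 to 0.679) and 2.28 (1.76 to 2.9). Between the first and last class the intervals overlap in the H2O2 + BHBNa list and not in the H2O2 list. Windows where at least 1 in 3 genes belonged to 1 tandem family stood above the rest in the H2O2 list. These 38 windows held 1.29 H2O2 members per Mb (0.954 to 1.71), against 0.672 (0.556 to 0.806) in the other 174. In the H2O2 + BHBNa list the values were 3.08 (2.55 to 3.69) and 2.61 (2.37 to 2.86), whose intervals overlap. The 14 olfactory receptor windows gave 1.5 and 3.93 per Mb, and the 5 keratin windows 1.8 and 2.6. The 9 zinc finger windows gave 0.778 and 2.89, and the 3 clustered histone windows 1.67 and 1.67, from 5 peaks in each list. The window of leukocyte immunoglobulin-like receptors and that of HLA and butyrophilin genes held 0 peaks in both lists, which in 1 Mb allows up to 3.69 per Mb. The latter, at 32 Mb of chromosome 6, adjoined an empty stretch, since the windows at 29, 30 and 31 Mb also held 0 in both lists. That at 33 Mb held 0 and 1. In all, 22 of the 212 windows held 0 in both lists, and how well reads can be placed in them was not measured.

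**Figure D3:**
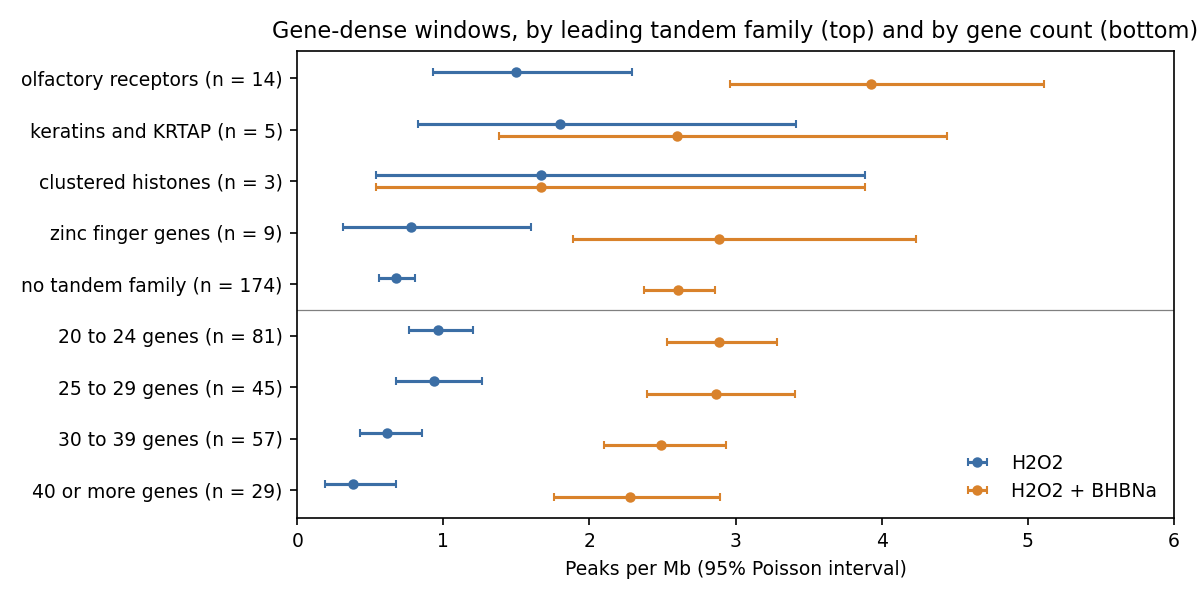
Peaks per Mb in gene-dense windows grouped by the tandem family that makes up at least 1 in 3 of their genes (top) and by gene number (bottom); points are the value of 1 list, whiskers 95% Poisson intervals and n the number of windows. Olfactory receptor windows sit at 1.5 and 3.93 and windows with 40 or more genes at 0.379 and 2.28.

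Inside these windows summits were spread over genes and gaps much as the sequence is, except at gene ends. A gene end was taken as the 1 kb on each side of where an annotated gene begins or finishes, and there 10% of the sequence of the windows lay. It held 8 of 166 H2O2 summits, 4.82% (2.46 to 9.22), and 31 of 571 H2O2 + BHBNa summits, 5.43% (3.85 to 7.6). Over all autosomal peaks the shares were 0.748% and 1.29%, and in windows with fewer genes gene ends held 0.63% and 1.06% of summits and 1.78% of the sequence. Gene-dense windows thus had a larger share of summits at gene ends than other windows, in step with their larger share of such sequence, and in each kind of window the share was below that of the sequence. Without the tandem family windows gene ends held 1.71% of H2O2 members, from 2 summits, and 4.85% of H2O2 + BHBNa members. Gene bodies held 51.2% and 53.6% of members and 52.5% of the sequence. Intergenic sequence held 44% and 41% of members and 37.5% of the sequence. The median distance of intergenic members to a protein-coding gene was 13.6 and 10.5 kb, against 199 and 126 kb in the other windows. Shorter distances follow from choosing windows by gene number, so this contrast describes the windows and not the peaks. Long noncoding RNA genes covered 11 of 73 and 37 of 234 intergenic members (15.1% and 15.8%). The share of intergenic sequence under such genes was not measured, so these counts have no reference.

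**Figure D4:**
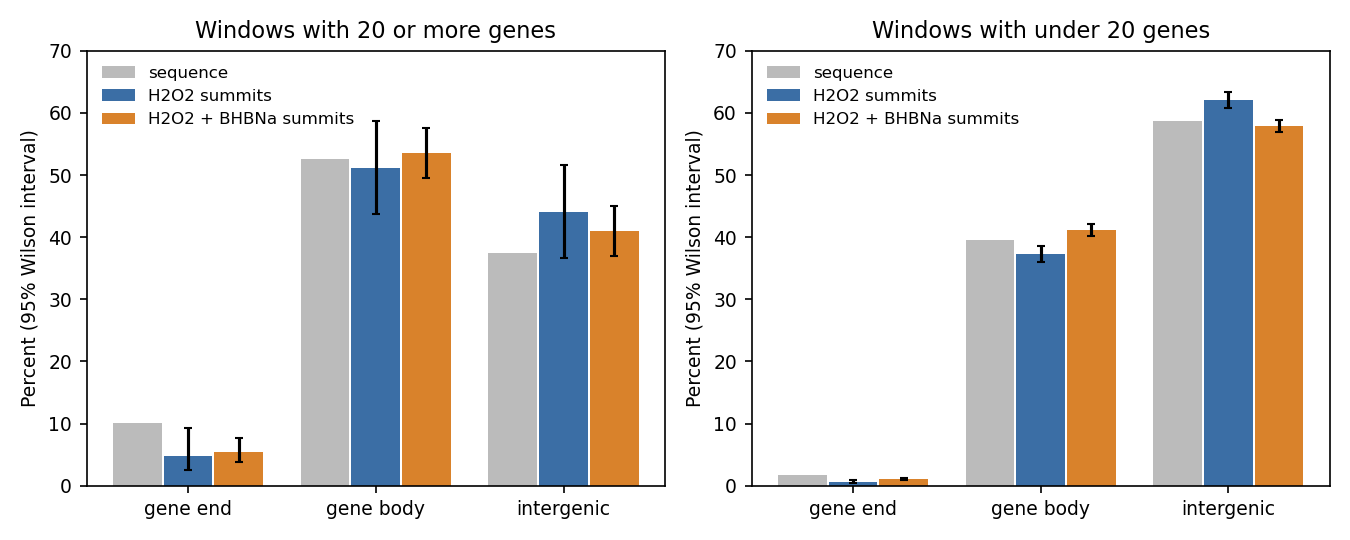
Share of sequence (grey) and of H2O2 and H2O2 + BHBNa summits at gene ends, in gene bodies and in intergenic sequence, in gene-dense windows (left) and in all others (right); whiskers are 95% Wilson intervals. In gene-dense windows gene ends make up 10% of sequence and 4.82% and 5.43% of summits.

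The gene-end members of the H2O2 list had folds of 2.85 to 3.72. The highest was near KRTAP10-5, a keratin-associated protein, with a fold of 3.72 (q = 0.245). Next came the olfactory receptor OR8G5 at 3.18 and MRGBP, a subunit of a histone acetyltransferase complex, at 3.14. LOC124904774, LOC124900214, OR10A2, RPTN and CLDN17 followed, at 3.13 to 2.85 with a q of 0.494 or more. By the strand in the table, 3 of the 8 lay at the start of the gene, 4 at the finish and 1 could not be assigned. In the H2O2 + BHBNa list 9 of 31 lay at the start, 16 at the finish and 6 could not be assigned.

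The highest H2O2 + BHBNa member at a gene end was 801 bp from DPRX, a homeobox gene, with a fold of 5.44 from 5 fragments. SPRR2B, a cornified envelope protein of skin, followed at 3.87 (q of 0.075). CYP4B1, a cytochrome P450, DIRAS1, a small GTPase, KHSRP, an RNA-binding protein of mRNA decay, and SRF, the serum response transcription factor, each had a fold of 3.63, from 3 fragments over the genome-wide background, and the zinc finger gene ZNF816 had 3.62. The q of each of these 5 was 0.0485, and the equal folds are the value that 3 fragments give. Of the 31 gene-end members 12 had at least 3 fragments.

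Members in gene bodies reached higher folds. In the H2O2 list the highest lay in SKAP1, an adaptor of T-cell receptor signalling (chromosome 17, 48360936 to 48361251), with 9 fragments, a fold of 6.86 and q = 1.76e-05. STAT5B (chromosome 17, 42262747 to 42262978) had a fold of 6.21 from 10 fragments (q of 0.000148), and RYR1, the calcium release channel of skeletal muscle, 5.71 from 7 (q of 0.00194). HORMAD2, a meiotic chromosome protein, ZNF318, PIK3R5, a regulatory subunit of phosphoinositide 3-kinase gamma, and HOXC4, a homeobox gene, had folds of 5.22, 5.21, 5.1 and 5 with a q of 0.0212 or less. KIF3A, a kinesin of cilia, CNNM2, which acts in renal magnesium handling, and MS4A14 completed the 10 at folds of 4.29, 4.29 and 4.11 and a q of 0.11 or more. The control background at the 10 was 0.344 to 0.917 fragments, so none sat at the genome-wide level.

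The highest H2O2 + BHBNa member was in ZBTB8A (chromosome 1, 32558262 to 32558752), with 8 fragments, a fold of 7.14 and q = 2.39e-06. SHC2, an adaptor of receptor tyrosine kinases (chromosome 19, 426345 to 426651), lay in a window of 33 genes, and RANGAP1, the activator of the Ran GTPase at the nuclear pore, on chromosome 22 (41300166 to 41300483). Both had 6 fragments, a fold of 6.35 and q = 3.84e-06. RBPJL, a pancreatic transcription factor, had 5.44 from 5 fragments, TUBA1C, an alpha-tubulin, 5.06 from 6, and CES4A, a carboxylesterase, 4.98 from 5. PROCR, the endothelial protein C receptor, had 4.77 from 6, and UBTD1 and HSD11B2 had 4.54 from 4. HSD11B2, the enzyme that inactivates cortisol in the distal nephron, carried its peak at 67433704 to 67434081 of chromosome 16, with a q of 0.00322. At SHC2, RANGAP1, DPRX, RBPJL, UBTD1 and HSD11B2 the background was the genome-wide 0.102.

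The highest intergenic members, named after their values were seen, came close to those in genes. A H2O2 + BHBNa peak at 44651887 to 44652141 of chromosome 17, 4.45 kb from MEIOC, had 6.82. A peak at 65499035 to 65499711 of chromosome 11 had 6.14 from 6 fragments (q of 2.54e-05) and lay in MALAT1, an abundant nuclear long noncoding RNA. Another, at 4379284 to 4379699 of chromosome 11 and 5.24 kb from TRIM21, had 5.67. In the H2O2 list the highest intergenic folds were 6.06 near OR52W1, 5.22 at 85.6 kb from CDH5 and 5.12 at 14.7 kb from DEFB125.

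As a group, members were about as often strong as peaks elsewhere. Of 166 H2O2 members 14 had q of 0.05 or less, 8.43% (5.09 to 13.7), where 7.08% of all autosomal peaks of the list did. Of 571 H2O2 + BHBNa members 95 did, 16.6% (13.8 to 19.9), where 15.1% of the list did. Their median folds were 3.3 and 2.72, against 3.52 and 2.72 elsewhere, and their median widths 285.5 and 326 bp, against 297 and 324. A −log10 q of 5 or more was reached by 0 of 166 H2O2 members, which allows up to 2.26%, and by 3 of 571 H2O2 + BHBNa members (0.525%), where 0.28% and 0.51% of other peaks reached it.

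The control background beneath the peaks was lower in these windows. Its median was 0.399 fragments at H2O2 members against 0.501 at other autosomal peaks, and 0.115 against 0.155 in the H2O2 + BHBNa list. At 32 H2O2 members it stood within 2% of the lowest value of the list, 19.3% (14 to 25.9), against 7.39% elsewhere. Among H2O2 + BHBNa members it did so at 242, 42.4% (38.4 to 46.5), against 15.9%. The share rose with each class of gene number in both lists, from 3.03% and 6.68% in windows without genes. The fewest fragments a list holds, 3 and 2, were found at 36.8% and 61.8% of members and at 20.6% and 51.2% of other peaks. A low background lets few fragments pass the limit on p, and its part in the peak numbers of these windows was not tested.

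**Figure D5:**
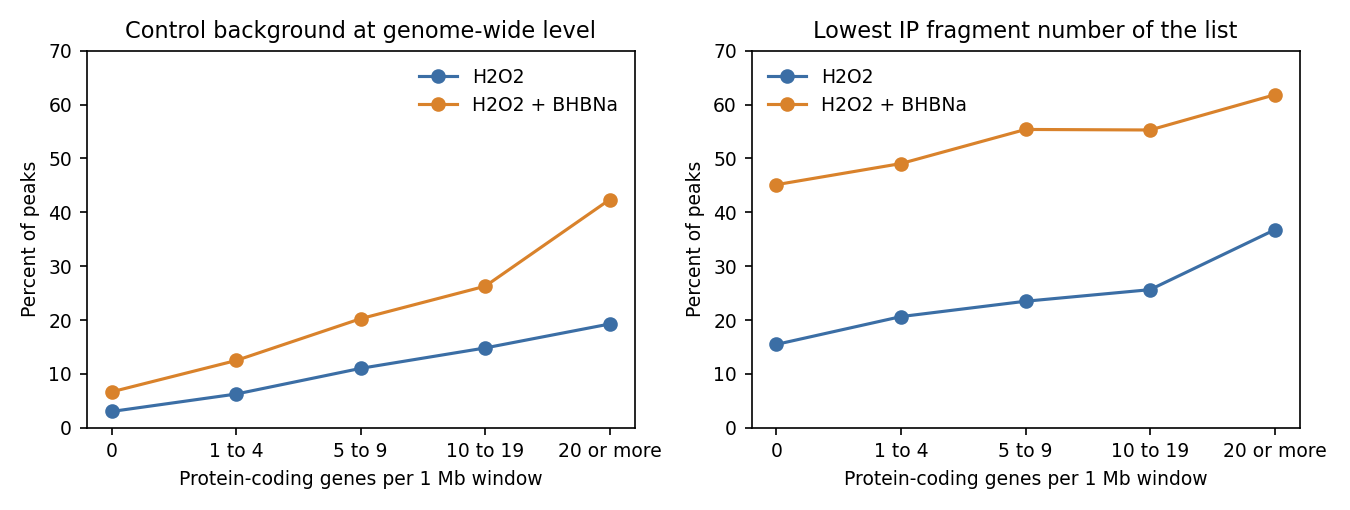
Percent of peaks whose control background was within 2% of the genome-wide level (left) and percent that rested on the fewest IP fragments of their list, 3 or 2 (right), by the number of protein-coding genes in the 1 Mb window; points are the value of 1 list. On the left the share rises from 3.03% to 19.3% in the H2O2 list and from 6.68% to 42.4% in the H2O2 + BHBNa list.

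The lists had 3 gene-dense peaks in common by an overlap of at least 1 bp, 1.81% (0.617 to 5.18) of the H2O2 members and 0.525% (0.179 to 1.53) of the H2O2 + BHBNa members. Over all autosomal peaks 1.17% and 0.632% were shared. Besides the SKAP1 peak, whose H2O2 + BHBNa counterpart had a fold of 4.19 (q = 0.0263) with its summit 6 bp away, there was a pair in MS4A14 (chromosome 11, 60403580 to 60403835 and 60403214 to 60403618) at folds of 3.89 and 2.67, with summits 365 bp apart. The third pair was intergenic, 7150 bp from the olfactory receptor gene OR14A16 on chromosome 1, at folds of 3.18 and 3.03. The q of the MS4A14 and OR14A16 peaks was 0.18 to 0.494 in both lists.

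Genes of these windows seldom carried a peak. In or within 1 kb of the gene, 88 of 6200 had an H2O2 summit, 1.42% (1.15 to 1.75), and 314 an H2O2 + BHBNa summit, 5.06% (4.55 to 5.64). Over all autosomal genes the shares were 8.06% and 15.6%, and over genes outside the windows 11.3% and 20.8%. The genes of the windows were also shorter, with a median of 11.2 kb against 38.6 kb. Among genes of at least 100 kb, 15.2% and 38.2% of the 191 in the windows carried a peak, against 34.2% and 54.3% of the 3018 elsewhere. Among genes under 10 kb the shares in the H2O2 list were close, 0.56% and 0.59%, and in the H2O2 + BHBNa list 0.98% and 1.22%. Genes of 10 to 30 kb gave 0.713% and 4.37%, against 2.23% and 6.84% elsewhere. Those of 30 to 100 kb gave 2.67% and 11.6%, against 7.68% and 18.2%. Per Mb of gene and 1 kb flanks, genes of at least 100 kb held 1.14 and 3.2 peaks, against 2.23 and 4.09 elsewhere. A lower share in the windows was therefore seen in both lists at genes of 10 kb or more, and not at the shortest genes of the H2O2 list.

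Both lists had a peak in or near 23 of the genes, 0.371% of the 6200, against 4.38% of all autosomal genes. Their median length was 139 kb, and, apart from SKAP1 and MS4A14, their peaks did not overlap between the lists. Of all autosomal peaks, 1.17% and 0.632% overlapped a peak of the other list, so a lack of overlap was usual. The longest, named after their values were seen, was DOCK3, an exchange factor of Rac, at 709 kb with 2 H2O2 peaks and 1 H2O2 + BHBNa peak. TANC2 carried an H2O2 peak at a fold of 2.96 and an H2O2 + BHBNa peak at 4.2 (q of 0.0263). HORMAD2 had 5.22 and 2.61, the latter from 2 fragments.

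Among gene families, the count of genes with a peak is given for H2O2 first. Over all genes of the windows the shares were 1.42% and 5.06%. Overlapping genes that share a peak are each counted. Examples are ZNF177 with ZNF559-ZNF177 in the H2O2 list and OR1L8 with OR1N2 in the H2O2 + BHBNa list, so genes can outnumber peaks. Zinc finger genes had 9 and 22 of 295, led by ZNF318 and ZSCAN5A (folds of 5.21 and 3.89) and by ZNF836 and ZNF446 (3.63 each). Olfactory receptors, the odorant receptors of the nose, had 6 and 11 of 290, led by OR6N1 and OR7D2 (3.95 and 3.88) and by OR51L1 and OR2B11 (4.12 and 3.85). Keratins and keratin-associated proteins had 3 and 0 of 143, KRTAP10-5 and KRT25 (3.72 and 3.44) among them. Protocadherins, cell adhesion proteins of neurons, had 0 and 5 of 55; the 5 genes, PCDHGA1 and PCDHGA2 among them, overlap and share 1 peak with a fold of 2.72 from 2 fragments. Clustered histones had 1 of 66 in the H2O2 list, H2BC12 at 3.68. Epidermal differentiation and S100 genes had 1 and 1 of 50, FLG at 3.42 and SPRR2B at 3.87. HOX genes had 1 and 0 of 19, the 1 being HOXC4. Of the remaining tandem families, HLA and butyrophilins (26 genes), leukocyte receptors (31), CEACAM and PSG glycoproteins (22) and kallikreins (15), had 0 in both lists.

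Among metabolic genes, peaks were found at 0 of 15 mitochondrial carriers of the SLC25 family, 0 of 32 mitochondrial ribosomal proteins, 0 of 33 cytosolic ribosomal proteins and 0 of 11 import subunits in both lists. The median gene length of these families was 3.47 to 8.73 kb. Other solute carriers had 0 and 5 of 90 (5.56% in the second list), with SLC2A9, a urate transporter of the kidney, at a fold of 3.61 (q of 0.0485) and SLC22A4, an organic cation transporter, at 2.72. Cytochrome P450 genes had 0 and 3 of 26 (11.5%), among them CYP4B1 and CYP4F3. Histone-modifying enzymes with KDM, KMT, HDAC, SIRT or KAT symbols had 0 and 3 of 20 (15%). Among them were SIRT3, a mitochondrial deacylase, and KDM2A, a histone demethylase with 3 peaks. Both had a highest fold of 2.72 from 2 fragments. The shares of 11.5% and 15% rest on 3 genes each. Median gene length was 20.2 kb for the P450 family and 21 kb for the histone enzymes, against 11.2 kb over all genes of the windows. The part of gene length in these shares was not tested. Histone modifiers with other symbols were not counted here, such as CREBBP with 1 H2O2 peak and EP300 with 2 H2O2 + BHBNa peaks. Genes in no listed family had 67 and 262 of 4925, 1.36% and 5.32%.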

How the data were processed

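H3K4bhb ChIP-seq in HK-2 cells gave 4 libraries, 1 IP and 1 control per treatment; the labels of the controls hold both the word IgG and the word Input. Per the submitters' processing notes, MACS2 2.2.7.1, Bowtie2 2.4.2, DiffBind, fastp 0.20.1, HOMER and ChIPseeker were used with GRCh38; their roles and settings are not given in the sources used here. Values deposited with a peak were its summit offset, its fold enrichment (a ratio of IP to background), its p and q as −log10, and a score. In 100% of rows the deposited score equals 10 times the −log10 p, rounded down. The lowest −log10 p was 3.00. The deposited files of a treatment held the same peaks in 100% of rows, with starts 1 bp apart, so each treatment has 1 list. Total read counts are unknown.

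Genes were the 18969 RefSeq protein-coding genes with coordinates on chromosomes 1 to 22. The table lists 153 more under a chromosome with scaffold coordinates, found by breaks in its order of starts; 0 of them had a promoter entry, and they were left out. Windows ran to the last annotated gene of a chromosome, and assembly gaps were not removed. IP fragments and background were solved from fold = (fragments + 1) / (background + 1) and the Poisson chance of more than that number of fragments. Wilson and exact Poisson intervals are 95%. The limit given for 0 of 164 promoter summits is 3 of 164 and not a Wilson limit. The analysis used matplotlib 3.10.9, scipy 1.17.1, pandas 2.3.3, numpy 2.4.6 and statsmodels 0.14.6 under Python 3.11.15. The solving of IP fragments was checked on simulated data. A planted share of gene-dense positions was read back only with the windows that had placed it, and the other steps were not simulated. The members and the 19 gene families (symbol patterns) were chosen with earlier results of these data known. Named genes are the 10 highest folds in or within 1 kb of a gene, the 8 highest at gene ends, all shared peaks, the 5 fullest windows of each list and up to 2 genes per family and list; others are said to be named after their values were seen. Some genes that meet this rule are not reported here. Promoters came from RefSeq, GRCh38.p14, matched by gene ID for 15100 genes. Alternatives changed the gene number, grid, gene coordinate, peak limits, overlap and chromosomes used.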

Additional observations from a re-analysis of the deposited data

Results flagged for a closer look

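Chromosome X was outside the windows compared. It had 6 windows with 20 or more genes, which held 9 of its 353 H2O2 peaks (2.55%) and 10 of its 704 H2O2 + BHBNa peaks (1.42%), 1.5 and 1.67 per Mb. These windows were 3.82% of those of the chromosome.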

How the results depend on the processing

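Values give H2O2 first and H2O2 + BHBNa second. The density ratio was below 1 in 24 of 24 alternatives. The shares were 4.98% and 9.13% at 15 or more genes, and the shares and ratios 0.782% and 1.93% (0.257 and 0.642) at 30 or more. They were 3.37% and 5.85% (0.439 and 0.784) at a q of at most 0.05. For H2O2 alone they were 0% and 0 at a −log10 q of at least 5, from 0 members; the H2O2 + BHBNa list had 3 members there, with an interval of the ratio that includes 1 (0.227 to 2.33). In the H2O2 + BHBNa list alone they were 4.38% (0.648) with the grid shifted by 50% of a window, 4.2% (0.553) at 3 or more fragments and 4.62% (0.753) without chromosome 19. Alternatives chosen after seeing the data gave 2% and 4.2% (0.257 and 0.553) for the 1000 peaks of lowest p, 2.01% and 4.27% without tandem family windows, and 0.503 and 0.826 within chromosomes. Keeping only windows with an annotated gene of any kind, tried after seeing the data too, gave ratios of 0.346 and 0.669. Counting the scaffold genes at their listed coordinates, also tried after seeing the data, gave 214 windows, 166 and 572 members and ratios of 0.363 and 0.701.

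Within 3 kb of a gene's ends lay 15.1% and 17.7% of members, and the share of sequence there was not measured. Within 1 kb lay 0% of H2O2 members at a q of at most 0.05, from 0 of 14, which allows up to 21.5%. At that limit 7.37% of H2O2 + BHBNa members (3.61 to 14.4) lay there. Both intervals include the 10% of sequence at gene ends. Without tandem family windows 1.71% of H2O2 members lay within 1 kb, from 2. A −log10 q of at least 5 was reached by 0% and 0.525% of members, and at 3 or more fragments 43.6% of H2O2 + BHBNa members had a q of at most 0.05, since peaks of 2 fragments never did. Shared peaks numbered 1 with an overlap of 50% of each, 1 with a q of at most 0.05 in both and 0 at a −log10 q of at least 5. The smaller counts follow from the stricter limits, as do the changed shares from other gene numbers. Leaving out chromosome 19, with 41 of the 212 gene-dense windows, or the 38 tandem family windows also lowers the share of windows that are gene-dense. The shares of peaks found that way therefore cannot be set against 7.35%. For the remaining changes the cause was not tested. The alternative that leaves out assembly gaps was not run, because no genome was used here. No paired analysis was possible because a treatment had a lone IP library, and for the same reason no replicate could be left out.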
